A study of Mus musculus with 12 samples.

Results

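The loci described here opened with the MEK inhibitor PD in both Hras-transformed fibroblast lines but had no peak in Hdac7SA.Mef2d fibroblasts. They were chosen by peak presence alone: each had a peak in the Hras.E1A+PD and Hras.Myc+PD lists and none in the lists of untreated Hras.E1A, Hras.Myc and Hdac7SA.Mef2d cells. Of 147985 loci, 1506 met this rule, which is 1.02% of all. A locus is a region where peaks of any of the 7 lists overlapped by at least 1 bp, and it is called open in a group if that group's list has a peak there. The rule fixed which of these 5 lists have a peak, so that pattern is no result. The TSA lists, the sequence and the position of the loci were not used by it.

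All cells were mouse embryonic fibroblasts (MEFs) from E13.5 embryos, made immortal with a pair of transgenes and studied for their capacity to become induced pluripotent stem cells. The Hras.E1A cells carry oncogenic Hras (written Ras in the labels) with the adenoviral protein E1A, and the Hras.Myc cells carry Hras with Myc. The Hdac7SA.Mef2d cells carry Mef2d with Hdac7SA, a class IIa histone deacetylase whose export serines were changed to alanine so that it stays in the nucleus. The Hras lines were untreated or were kept for 2 days with PD (PD0325901, an inhibitor of MEK in the ERK pathway) or with TSA (trichostatin A, an inhibitor of histone deacetylases), and Hdac7SA.Mef2d cells were untreated. Untreated and PD groups had 2 ATAC-seq libraries each and the TSA groups 1 each, with about 50000 cells per library and 12 samples in all. The cells are OG2 MEFs, which carry an Oct4-GFP reporter, by the labels and the study's methods, although the growth protocol in the labels names a wildtype ICR background. The labels do not say whether a line is 1 clone or a mixed population, and treated Hdac7SA.Mef2d cells were not analysed here.

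ATAC-seq marks DNA that the Tn5 transposase can reach. ERK signalling ends in part on AP-1, the FOS and JUN dimers that open many fibroblast enhancers, and inhibition of MEK lowers that output. TEAD proteins are the DNA-binding partners of YAP and TAZ in the Hippo pathway. HOX homeodomain proteins set position along the body and bind DNA together with the TALE-class homeodomain proteins PBX and MEIS. HOX proteins of the posterior groups, paired with PBX, prefer the letters TGATTTAT, while TGACAG is the core bound by MEIS. A match to such letters shows that the letters are there, and gives no evidence of binding.

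The sequences of the strongest members are shown first because they show the HOX-PBX, MEIS and TEAD letters that the motif results turn on. Strength is the lower of the 2 percentile ranks that a locus had by peak score in the PD lists. The first 4 loci in that order lay at chr3:51055088-51055287, chrX:16998675-16998874, chr10:7150310-7150509 and chr15:6941673-6941872 (central 200 bp, mm10, forward strand, read 5′ to 3′). Each is named by its nearest protein-coding gene. Capitals mark TGANTCA (AP-1), ACATTCC or GCATTCC (TEAD), TGATTNAT (HOX-PBX) and TGACAG (MEIS) on either strand.
Noct locus: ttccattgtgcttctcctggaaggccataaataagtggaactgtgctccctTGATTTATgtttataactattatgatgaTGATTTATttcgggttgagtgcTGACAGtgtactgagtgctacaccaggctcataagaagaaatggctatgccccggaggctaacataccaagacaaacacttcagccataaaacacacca
Ndp locus: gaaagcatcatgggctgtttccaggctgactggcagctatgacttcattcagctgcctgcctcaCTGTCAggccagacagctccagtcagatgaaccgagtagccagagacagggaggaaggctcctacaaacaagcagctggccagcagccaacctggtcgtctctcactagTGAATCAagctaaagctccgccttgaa
Cnksr3 locus: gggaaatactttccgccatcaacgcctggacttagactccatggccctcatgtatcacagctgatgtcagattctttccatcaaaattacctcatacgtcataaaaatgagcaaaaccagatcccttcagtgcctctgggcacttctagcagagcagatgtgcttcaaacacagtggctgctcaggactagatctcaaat
Osmr locus: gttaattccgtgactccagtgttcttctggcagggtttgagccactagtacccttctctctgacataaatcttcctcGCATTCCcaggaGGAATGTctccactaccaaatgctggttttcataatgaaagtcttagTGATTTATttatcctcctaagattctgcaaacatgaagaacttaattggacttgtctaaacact

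The Noct locus held 2 copies of TGATTTAT and a MEIS core, and the Osmr locus 2 TEAD letters and 1 TGATTTAT. The Ndp locus held a MEIS core and 1 match to TGANTCA, in the form TGAATCA, and the Cnksr3 locus none of the 4. A further 3 loci are shown for pairs of motifs, each the highest in the same order that had not yet been printed. They lay at chr19:58689027-58689226 (TEAD with HOX-PBX), chr12:99453869-99454068 (HOX-PBX with MEIS) and chr9:53864175-53864374 (TEAD with MEIS), and these pairs were picked after the motif shares were seen.
Pnlip locus: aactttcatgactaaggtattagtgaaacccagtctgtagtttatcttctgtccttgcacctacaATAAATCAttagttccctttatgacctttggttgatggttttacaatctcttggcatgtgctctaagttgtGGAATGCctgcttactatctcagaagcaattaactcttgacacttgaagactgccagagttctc
Foxn3 locus: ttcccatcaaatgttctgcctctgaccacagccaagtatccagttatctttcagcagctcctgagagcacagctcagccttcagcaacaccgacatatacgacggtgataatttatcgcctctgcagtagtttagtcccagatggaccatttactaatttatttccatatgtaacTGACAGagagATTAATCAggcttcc
Sln locus: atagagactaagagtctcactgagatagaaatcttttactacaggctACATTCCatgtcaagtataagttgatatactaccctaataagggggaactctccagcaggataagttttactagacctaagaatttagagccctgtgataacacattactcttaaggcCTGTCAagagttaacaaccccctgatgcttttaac

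The motif shares of the 1506 loci were set beside those of 3 other classes. The first comprised 2556 loci that opened with PD in both lines and were open in Hdac7SA.Mef2d (shared PD-opened loci). The second comprised 1718 loci that were open in both lines with and without PD and closed in Hdac7SA.Mef2d (kept loci). The third comprised 5618 loci that were open in both untreated lines and closed in both PD lists and in Hdac7SA.Mef2d (PD-closed loci). Each group had 1 pooled peak list, which leaves no replicates to test, and p-values are not printed. Shares carry exact (Clopper-Pearson) 95% intervals and ratios carry 95% intervals, all of which cover counting error only and treat loci as independent. The lists carry no read counts: sequencing depth could not be read from them, and reads can be present where no peak was listed.

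The 1506 loci were rich in HOX-PBX and MEIS letters and poor in AP-1 letters. TGACAG, the MEIS core, lay in the central 200 bp of 454 of the loci, or 30.1% (27.8 to 32.5%). The share was 20.9% in shared PD-opened loci, 18.6% in kept loci, 20% in PD-closed loci and 15.3% over all loci. The ratio to shared PD-opened loci was 1.44 (1.30 to 1.61), and the ratios to kept and PD-closed loci were 1.62 (1.43 to 1.84) and 1.51 (1.38 to 1.66). The MEIS share was higher than in each of the 3 classes beyond counting error. With every list cut to the length of the shortest, the ratios to shared PD-opened and PD-closed loci fell to 1.10 (0.977 to 1.24) and 1.06 (0.992 to 1.14), whose intervals hold 1.

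The HOX-PBX letters TGATTNAT lay in 212 loci, or 14.1% (12.4 to 15.9%), against 10.6% of shared PD-opened loci, 4.48% of kept loci, 5.61% of PD-closed loci and 6.39% of all loci. The ratio was 1.33 (1.12 to 1.57) to shared PD-opened loci and 3.14 (2.44 to 4.04) to kept loci. Kept loci had more G and C, and when they were weighted to the GC content of the 1506 loci the ratio to them was 1.87 (1.52 to 2.30). The shares differed by the letter at the free position. TGATTTAT, the posterior HOX form, was in 144 loci (9.56%), in 6.96% of shared PD-opened, 2.27% of kept and 0.498% of PD-closed loci, and its ratio to PD-closed loci was 19.2 (12.8 to 28.6). That ratio was 11.8 (8.47 to 16.3) with GC weighting and 7.81 (5.54 to 11) with every list cut to the length of the shortest. Its ratio to shared PD-opened loci was 1.37 (1.11 to 1.69), and both this ratio and that of TGATTNAT turned below 1, to 0.753 and 0.772, with equal list lengths. TGATTCAT went the other way, with 1.2% of the 1506 loci and 4.08% of PD-closed loci. Its first 7 letters also match TGANTCA, so it counts as an AP-1 match too. TGATTAAT was in 2.26% and TGATTGAT in 1.53% of the loci.

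The loci were few among all carriers of TGATTTAT, but their share there was above their 1.02% of all loci. These letters occurred in 2633 loci of the series, of which 144, or 5.47%, were among the 1506 and 178, or 6.76%, were shared PD-opened loci. Both classes together made up 2.74% of all loci and 12.2% of the loci with TGATTTAT. Across whole lists, TGATTTAT lay in 1.76% of the loci open in Hras.E1A+PD and 2.48% of those open in Hras.Myc+PD, against 1.2% in untreated Hras.E1A, 0.795% in untreated Hras.Myc, 1.05% and 0.876% in the respective TSA lists and 1.62% in Hdac7SA.Mef2d. The share in PD lists includes the loci described here, so this order is partly their own. TGATTNAT with any letter at the free position was lower with PD in Hras.E1A, at 4.26% against 5.28% untreated. In Hras.Myc it was higher with PD, at 5.66% against 4.36%. MEIS letters were in 14.9% with PD and 15.3% untreated in Hras.E1A, and in 17.2% and 15.7% in Hras.Myc.

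A search over all 7-letter words, with no motif given, led to the same letters when the loci were set against PD-closed loci. Against PD-closed loci, the word with the highest ratio among words found in at least 2% of the 1506 loci was ATAAATC, which is the reverse complement of part of TGATTTAT. It was in 270 loci (17.9%), in 12.6% of shared PD-opened, 4.25% of kept and 1.67% of PD-closed loci. CCATAAA, another word of the posterior HOX type, was in 178 loci (11.8%), and in 7.32%, 2.68% and 2.14% of the other classes in that order. It was picked from lower in the ranking, at a ratio of 5.53 (4.42 to 6.93) to PD-closed loci. Words such as AATTTAT, at 8.09 (6.14 to 10.7), ranked above it. The word with the lowest ratio against PD-closed loci was the AP-1 site TGACTCA, in 22 of the loci (1.46%), 3.52% of shared PD-opened, 12.5% of kept and 57.8% of PD-closed loci. Against shared PD-opened loci the highest ratio was that of another word, AGGACCC, in 49 loci (3.25%) and in 1.10% of the shared PD-opened loci, a ratio of 2.97 (1.88 to 4.70). Against kept loci it was that of TAATATA, a word of A and T only, at 7.99 (3.63 to 17.6). The ratios of words were not weighted for GC content, which was higher in kept and PD-closed loci. These words were chosen after their values were seen.

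TEAD letters separated the loci from the shared PD-opened ones. ACATTCC or GCATTCC was in 253 loci, or 16.8% (14.9 to 18.8%), above the 11.9% of all loci, the 6.52% of kept loci and the 4.49% of PD-closed loci, but below the 28.5% of shared PD-opened loci. The ratio to the latter was 0.590 (0.519 to 0.670) and the ratio to kept loci 2.58 (2.09 to 3.18). Thus among PD-opened loci, those closed in Hdac7SA.Mef2d held fewer TEAD and more MEIS letters than those open there, and both differences were larger than counting error. MEIS and HOX-PBX letters occurred together in 67 loci (4.45%) and in 1.88% of shared PD-opened loci, a ratio of 2.37 (1.64 to 3.41). TEAD with HOX-PBX went in the opposite direction, with 1.79% against 2.93% and a ratio of 0.611 (0.395 to 0.944). At least 1 of the TEAD, MEIS, HOX-PBX or TAATTA letters was in 53.8% of the loci and in 52.7% of shared PD-opened loci, a ratio of 1.02 (0.962 to 1.08).

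AP-1 letters (TGANTCA) were in 67 loci, or 4.45% (3.46 to 5.62%), against 29.2% of all loci, 63.1% of PD-closed loci, 15.3% of kept loci and 6.10% of shared PD-opened loci. The ratio to PD-closed loci was 0.0705 (0.0558 to 0.0892). The ratio to shared PD-opened loci was 0.729 (0.551 to 0.964), and it was 0.789 (0.595 to 1.05) with GC weighting. The difference for TGANTCA, whose middle letter is free, thus did not hold. For TGACTCA alone, picked after its values were seen, the ratio to shared PD-opened loci was 0.415 (0.261 to 0.658) without GC weighting. AP-1 letters alone, without TEAD, MEIS or HOX letters, were in 22 loci.

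**Figure D1:**
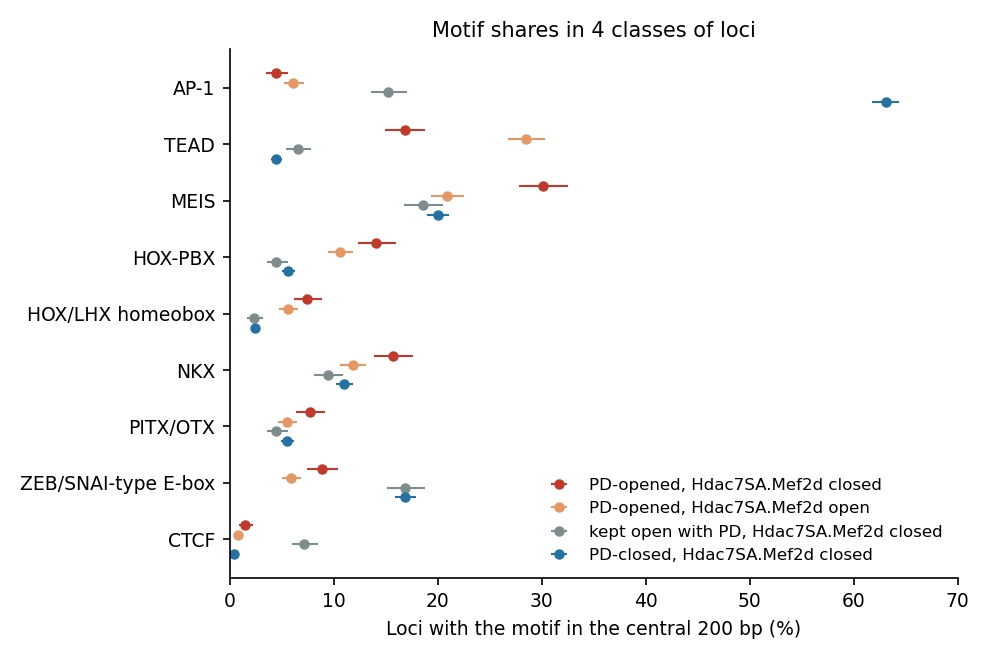
Percentage of loci in each of 4 classes (colours) that held the letters of 9 motifs in their central 200 bp; points are shares and bars exact 95% intervals, which cover counting error only. The 1506 loci (red) are highest for MEIS at 30.1% and HOX-PBX at 14.1%, lie between the other classes for TEAD at 16.8%, and are lowest for AP-1 at 4.45%.

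Letters of other homeodomain types were also more frequent than in shared PD-opened loci. Of 39 motifs searched, 9 had a ratio to shared PD-opened loci with an interval above 1 and 5 had one below 1, with no adjustment for their number. TAATTA, bound by many HOX and LHX proteins, was in 7.44% of the loci and 5.56% of shared PD-opened loci. CACTTNA (NKX type) was in 15.7% against 11.8%, and GGATTA (PITX and OTX type) in 7.70% against 5.52%. CAGGTG, the E-box of the ZEB and SNAI repressors, was in 8.83% against 5.87%, although kept and PD-closed loci both held it in 16.9%. The CTCF motif, which marks boundaries of chromatin loops, was in 1.46% of the loci, against 0.782% of shared PD-opened and 7.16% of kept loci. The others above 1 were REL (3.65% against 2.54%) and SP (2.86% against 1.88%). Below 1 beside TEAD and AP-1 were RUNX (3.85% against 5.40%), GATA (2.52% against 3.72%) and the AAGGTCA site of orphan nuclear receptors (2.92% against 4.23%). The MEF2 motif, bound by the transgene product Mef2d, was in 19 loci (1.26%), against 0.88% of all loci. Its ratio to shared PD-opened loci was 0.645 (0.382 to 1.09), an interval that holds 1. Its ratios to kept and PD-closed loci were above 1, at 3.61 (1.45 to 9.02) and 5.06 (2.54 to 10.1).

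The hits lay towards the middle of the loci for HOX-PBX and TEAD, and less so for MEIS. MEIS hits rose from 1.26 per 100 loci in the 20-bp bin at -190 bp to 3.65 in that at -10 bp. Over the full 400 bp, 39.8% of 329 HOX-PBX hits and 37.0% of 433 TEAD hits lay within 50 bp of the centre, compared with 31.9% of 872 MEIS hits and 23.9% of 142 AP-1 hits. In shared PD-opened loci TEAD hits were closer to the centre, with 45.2% within 50 bp. Of the AP-1 hits, 48.4% lay within 50 bp in kept loci and 32.8% in shared PD-opened loci, both above the 23.9% of the 1506 loci.

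**Figure D2:**
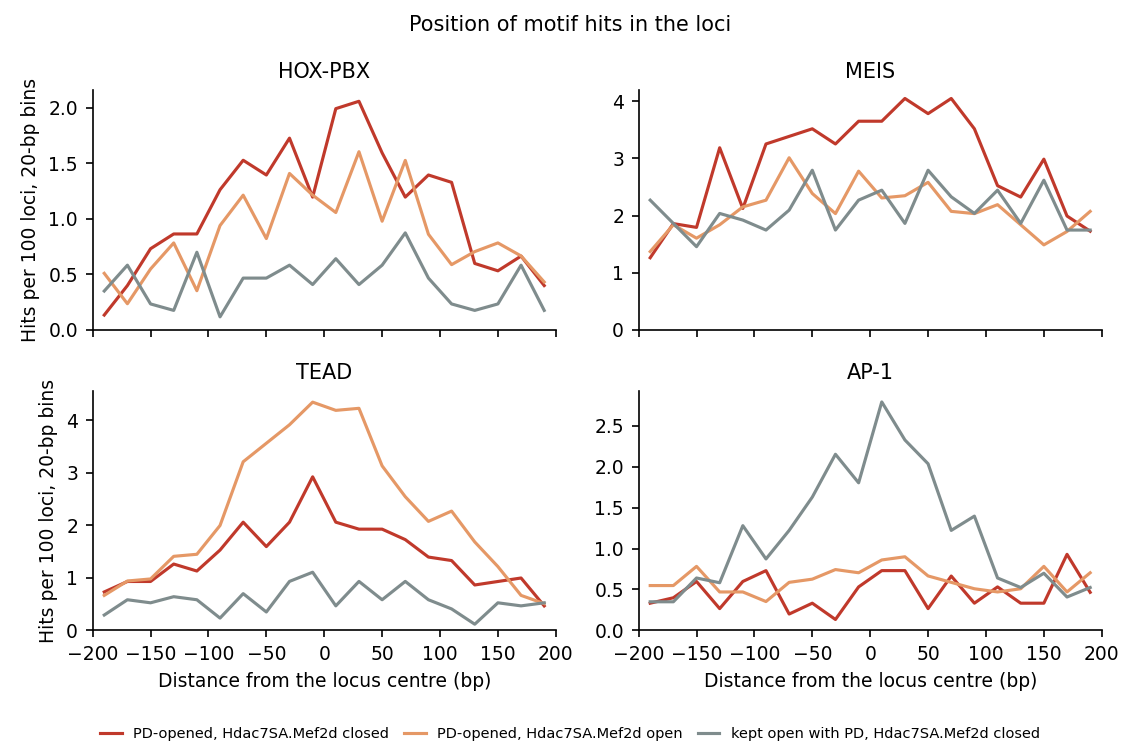
Number of motif hits per 100 loci in 20-bp bins (vertical axis) against the distance of the hit from the locus centre in bp (horizontal axis), for 4 motifs and 3 classes of loci (lines). HOX-PBX, TEAD and, to a lesser degree, MEIS hits rise towards the centre of the 1506 loci (red), with 39.8%, 37.0% and 31.9% within 50 bp. AP-1 hits rise most in kept loci (grey), with 48.4%, against 32.8% in shared PD-opened loci and 23.9% in the 1506 loci.

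Because the classes differ in whether Hdac7SA.Mef2d had a peak, the shared PD-opened loci were also divided into 4 equal parts of 639 by the rank of that peak. TEAD shares were 22.5%, 27.1%, 28.0% and 36.3% from the weakest to the strongest part, and the 1506 loci, with no peak, were below each of them. The gap to the weakest part was -5.74 percentage points (-9.58 to -2.09). HOX-PBX shares were 7.36%, 10.2%, 11.1% and 13.8%, so here the 1506 loci were above the weakest part, by 6.72 points (3.89 to 9.29), and close to the strongest, at 0.306 points (-3.03 to 3.38). MEIS shares ran from 18.9% to 22.4% and were below the 30.1% of the 1506 loci in every part. The MEIS and TEAD differences were beyond counting error against each part, and the HOX-PBX difference held against the weaker 2 parts but not against the stronger 2. When every list was cut to the length of the shortest, weak Hdac7SA.Mef2d peaks were dropped, the rule took in 6792 loci, and the HOX-PBX ratio to shared PD-opened loci turned to 0.772 (0.645 to 0.923), while the TEAD ratio was 0.473 (0.429 to 0.520). Of those 6792 loci, 4719 lay at an Hdac7SA.Mef2d peak of the full list.

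Loci that opened with PD in 1 Hras line only, and were closed in the 3 untreated lists, differed between the lines. The Hras.E1A set comprised 1804 loci and the Hras.Myc set 2795. MEIS letters were in 17.4% (15.7 to 19.2%) of the former and 33.3% (31.5 to 35.1%) of the latter, and HOX-PBX letters in 5.82% and 14% (12.7 to 15.3%). The 1506 loci open in both differed from the Hras.Myc set by -3.13 points (-6.00 to -0.201) for MEIS and by 0.0878 points (-2.05 to 2.31) for HOX-PBX. They exceeded the Hras.E1A loci by 12.7 points (9.84 to 15.6) for MEIS and by 8.26 points (6.22 to 10.4) for HOX-PBX. TEAD letters were more frequent in the loci open in both lines than in either single-line set, by 4.05 points (1.63 to 6.50) over Hras.E1A and by 4.96 points (2.76 to 7.24) over Hras.Myc.

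Most of the peaks ranked below the median of their list, with 34.5% above it in Hras.E1A+PD and 45.9% in Hras.Myc+PD. Above the percentile 90 of the list were 52 of them (3.45%) in Hras.E1A+PD and 169 (11.2%) in Hras.Myc+PD. For shared PD-opened loci these shares were close, at 3.52% and 11.4%. The score of the deposited peaks has no stated scale, so peaks are given by their percentile in their own list. In Hras.E1A+PD the scores of the 1506 loci ran from 1.21 to 22.7 with a median of 5.21, at the percentile 35.5 of the list. In Hras.Myc+PD they ran from 1.2 to 19.2 with a median of 5.62, at the percentile 46.0. In both lists 381 loci (25.3%) were above the median and 340 (22.6%) were below the percentile 25. Shared PD-opened loci had medians at the percentiles 40.6 and 48.1, and kept loci at 32.2 and 25.9. Loci with HOX-PBX letters had higher median percentiles than those without, at 49.2 and 33.4 in Hras.E1A+PD and 59.0 and 43.7 in Hras.Myc+PD. For MEIS letters the medians were 40.8 and 33.8, and 56.9 and 41.6. For TEAD letters they were 37.4 and 34.6, and 51.6 and 44.6. For AP-1 letters they were 33.1 and 35.6, and 53.9 and 45.9.

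At the edge of the rule, peaks of the untreated Hras lists ranked lower than those of Hdac7SA.Mef2d. At 38 of the 1506 loci (2.52%) a peak of an untreated list lay within 500 bp. A further 565 loci failed the rule only by a peak in untreated Hras.E1A, whose median score was 3.95 (percentile 25.7) and lowest score 1.2. Another 264 failed only by a peak in untreated Hras.Myc, with a median score of 2.51 (percentile 11.6). In the shared PD-opened class, which failed only by a peak in Hdac7SA.Mef2d, the median score there was 4.81, at the percentile 40.5. The PD peaks of the 1506 loci had medians at the percentiles 35.5 and 46.0. Just inside the rule, the lowest PD scores were 1.21 in Hras.E1A+PD and 1.2 in Hras.Myc+PD, at the floor of each list.

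**Figure D3:**
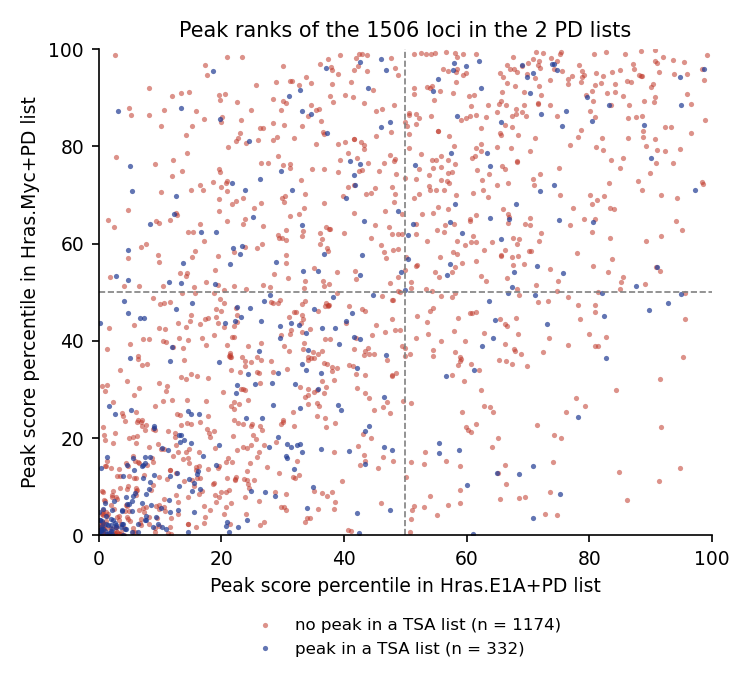
Percentile of the peak score in the Hras.E1A+PD list (horizontal axis) against that in the Hras.Myc+PD list (vertical axis) for each of the 1506 loci (points), with the median of each list as dashed lines; blue points had a peak in a TSA list. Loci spread over all ranks, with 381 above both medians and 340 below the percentile 25 in both, and the points with a TSA peak sit lower.

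Most of these loci had no peak with TSA. In Hras.E1A+TSA, 187 of 1506 loci had a peak, which is 12.4% (10.8 to 14.2%), and in Hras.Myc+TSA 209 did, which is 13.9% (12.2 to 15.7%). Among all loci without a peak in the untreated list of the same line, 16.7% were open in Hras.E1A+TSA and 17.7% in Hras.Myc+TSA. That set includes loci that are in the series only through a TSA peak, which the 1506 loci, all with PD peaks, cannot be, so nothing is read from the gap. A peak in neither TSA list was found at 1174 loci (78.0%), in both at 64 (4.25%), in Hras.E1A+TSA only at 123 and in Hras.Myc+TSA only at 145. Of the 2556 shared PD-opened loci 346 and 357 had such peaks, and the differences of -1.12 points (-3.21 to 1.05) and -0.0893 points (-2.26 to 2.16) were within counting error. Of the loci that opened with PD in Hras.E1A only, 16.4% were open in Hras.E1A+TSA, and the 1506 loci differed by -3.94 points (-6.31 to -1.53). Of those that opened in Hras.Myc only, 11.8% were open in Hras.Myc+TSA, and the difference was 2.11 points (0.0348 to 4.27). Kept and PD-closed loci, which had peaks in both untreated lists, were open with TSA in 78.2 to 90.3%. Each TSA group had 1 library, so a difference between the lines cannot be told apart from one between libraries. With all lists cut to the length of the shortest the shares were 7.76% in Hras.E1A+TSA and 20.5% in Hras.Myc+TSA.

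The loci that did have a TSA peak differed from the rest. Their TSA peaks were weak, with median percentiles of 15.4 in Hras.E1A+TSA and 17.7 in Hras.Myc+TSA. Their PD peaks were weaker as well: the 332 loci with a peak in a TSA list had median PD percentiles of 26.8 (Hras.E1A+PD) and 33.5 (Hras.Myc+PD), against 37.5 and 49.6 for the 1174 loci without one. HOX-PBX letters were in 8.73% of the loci with a TSA peak and 15.6% of those without, a difference of -6.85 points (-10.2 to -2.82). Of the 64 loci open in both TSA lists 1 held HOX-PBX letters. MEIS shares were 25.6% with a TSA peak and 31.4% without, a difference of -5.83 points (-11 to -0.237). In the 64 loci open in both TSA lists the MEIS share was 35.9%, above the 31.4%, with an interval of the difference that holds 0. TEAD shares with and without a TSA peak were 16.9% and 16.8%, and AP-1 shares 4.82% and 4.34%, with intervals of the difference that hold 0. The part of peak strength in these differences was not tested.

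**Figure D4:**
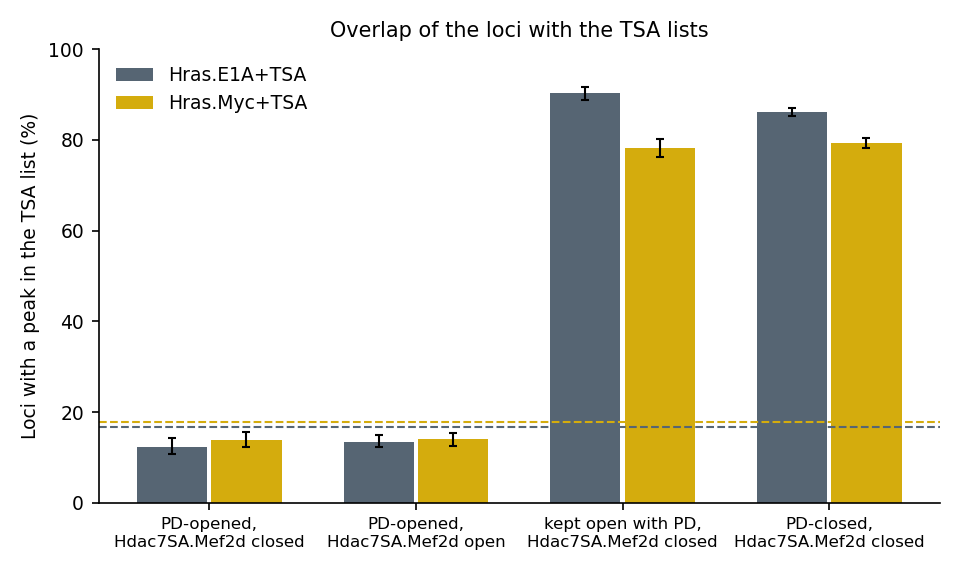
Percentage of loci with a peak in the Hras.E1A+TSA (grey) and Hras.Myc+TSA (yellow) lists for 4 classes of loci; error bars are exact 95% intervals that cover counting error only, and dashed lines give the shares over all loci without a peak in the untreated list of the same line. The 1506 loci, at 12.4% and 13.9%, are close to the shared PD-opened loci; the dashed lines at 16.7% and 17.7% include loci found only through a TSA peak and are given for scale.

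The loci were often far from start sites, and many lay inside genes. Their median distance to the nearest start site of a protein-coding gene was 49100 bp, close to the 50900 bp of shared PD-opened loci and farther than the 16400 bp of kept, 27200 bp of PD-closed and 31900 bp of all loci. Of the 1506, 682 (45.3%) lay in introns of protein-coding genes, 667 (44.3%) were intergenic, 88 lay in bodies of non-coding genes, 28 in UTRs, 21 in coding exons and 20 in exons of non-coding transcripts. Within 1000 bp of a start site were 77 loci, or 5.11% (4.06 to 6.35%), against 11.5% of all loci, 3.29% of shared PD-opened, 15% of kept and 2.74% of PD-closed loci. The difference from shared PD-opened loci was 1.83 points (0.566 to 3.21). The promoter share was 17.9% with equal list lengths, where the rule took in 6792 loci. Median GC content was 45.8%, against 44.4%, 52% and 49% in the other classes in that order and 46.2% over all loci. Every autosome and chromosome X held members, at 0.772% (chromosome 9) to 1.33% (chromosome 18) of its loci. Another of the 1506 loci lay within 10000 bp of 72 of them (4.78%), compared with 1.91% of all loci and 3.72% of shared PD-opened loci, and the difference from the latter, 1.06 points (-0.195 to 2.43), was within counting error.

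Promoter members stood apart from the distal ones. A peak in a TSA list was present at 41 of the 77 promoter loci (53.2%, 41.5 to 64.7%) and at 291 of the 1429 distal loci (20.4%, 18.3 to 22.5%). HOX-PBX letters were in 1 promoter locus and in 211 distal loci (14.8%), and MEIS letters in 15.6% and 30.9%. Many promoter loci had PD scores near the floor of 1.2, such as Irf3 at 1.21 in Hras.E1A+PD and 1.25 in Hras.Myc+PD. Their TSA share was not set beside that of promoter loci in other classes, so it is not read as particular to them. The promoter loci named next were picked after their values were seen and are among the stronger ones. The Mob2 promoter locus had scores of 10.5 in Hras.E1A+PD and 6.99 in Hras.Myc+PD, and no TSA peak. The scores at Rnf220, a ubiquitin ligase and the promoter locus with HOX-PBX letters, were 7.26 and 8.17, and those at Kcna5, a voltage-gated potassium channel, 6.54 and 5.91. Hdac9, a class IIa histone deacetylase like Hdac7, had a locus with its centre at -23 bp from a start site with scores of 4.88 and 4.55, at the percentiles 32.0 and 31.2, and a peak of 2.87 in Hras.E1A+TSA. All 4 lacked a peak in the 3 untreated lists, as the rule requires.

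The 12 strongest loci were mostly far from start sites. Of these, 7 were intergenic, 4 intronic and 1 lay in a non-coding gene, and 9 were more than 50000 bp from the nearest start site. HOX-PBX or MEIS letters were in 7 of them, TEAD letters in 3, and 2 had a TSA peak, as did 332 of all 1506 loci. The highest, with its centre at -169259 bp from the start site of Noct, the nocturnin gene, whose level follows the body clock, had scores of 22.7 in Hras.E1A+PD (percentile 99.3) and 14.6 in Hras.Myc+PD (percentile 98.9), with no peak in the other 5 lists. The Ndp locus, upstream of the gene for the Frizzled-4 ligand norrin, had scores of 20.5 and 11.8 in the PD lists and also 9.11 and 5.21 in the TSA lists of Hras.E1A and Hras.Myc. The only other one with a TSA peak was the locus nearest to Gm1140, at 5.42 in Hras.Myc+TSA. The Cnksr3 locus, in an intron of that scaffold gene, had scores of 19.5 and 11.8 and no other peak.

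The Osmr locus lay at -66804 bp from the start site of the oncostatin M receptor gene, with scores of 16.0 and 12.7. The Foxn3 locus lay in an intron of that forkhead repressor gene, at -3895 bp from one of its start sites, with scores of 16.3 and 11.4. The locus nearest to Emx2, a homeobox gene, was at -19790 bp, with scores of 13.7 and 12.5. It held HOX-PBX letters and had no TSA peak. Others lay nearest to Gm1140, Tacr1, Tle4, Slc30a5 and Robo1, with scores of 13.8 to 20.3 in Hras.E1A+PD and 10.9 to 13.9 in Hras.Myc+PD. A nearest gene is a position only, and no expression was measured in these files.

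Members were spread thinly over genes. Within 50000 bp of a protein-coding start site were 761 loci, and 611 genes with a regular symbol had 1 each, 50 had 2, 4 had 3 and 2 had 4. Dlc1, a tumour suppressor, had 4, all in its introns at 28324, 21178, 7514 and -49755 bp from its start sites. The first had scores of 14 in Hras.E1A+PD and 7.39 in Hras.Myc+PD, and the scores of the other 3 were 2.53 to 7.48 and 6.92 to 9.33. Of the 33 loci assigned to Dlc1, 27 were open in Hdac7SA.Mef2d, 20 in Hras.Myc+PD and 15 in Hras.E1A+PD, against 10 and 17, in that order, in the untreated lists of Hras.Myc and Hras.E1A, and these counts include the 4 members. Limch1, which acts on non-muscle myosin II, also had 4 intronic loci, with scores of 4.84 to 8.49 and 2.74 to 8.05. Of its 32 loci, the 4 members included, 9 were open in untreated Hras.Myc and 21 in Hras.Myc+PD, while 17 were open in Hras.E1A both without and with PD.

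Cd247, the zeta chain of the T cell receptor, had 3 of its 10 loci among the members. The one at -2192 bp had scores of 8.90 and 9.65, that at 17777 bp had 5.45 and 10.7, and that at 15866 bp was weak at 1.49 and 1.89. Gse1, Synpo (an actin-binding protein) and Crb2 (an apical polarity protein) had 3 each, of 23, 18 and 15 loci assigned to them. Synpo scores were 1.49 to 3.19 and 1.84 to 2.25, near the floor in both PD lists. The Crb2 locus at -12417 bp had scores of 16.1 in Hras.E1A+PD (percentile 95.7) and 5.53 in Hras.Myc+PD (percentile 44.6).

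The other named genes, with 2 loci each, were Dpf3 (a BAF complex subunit), Mecom (a zinc finger transcription factor), Tcf4 (an E protein), Cd82 (a tetraspanin), Foxn3, Polr2m, Ifne, Man2a2 and Elmod1. Both Mecom members, of 47 loci assigned to that gene, and both Tcf4 members, of 45, were intronic and within 10000 bp of a start site. These members were stronger in Hras.Myc+PD, where their percentiles were 55.8 to 85.4, than in Hras.E1A+PD, where they were 11.6 to 23.2. Of the 38 loci at these 15 genes, 26 lay in an intron of the named gene, 12 had a TSA peak and 12 held MEIS letters. Among all 1506 loci, 682 (45.3%) lay in an intron of a protein-coding gene. A TSA peak was present at 332 of the 1506, and 454 (30.1%) held MEIS letters.

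**Figure D5:**
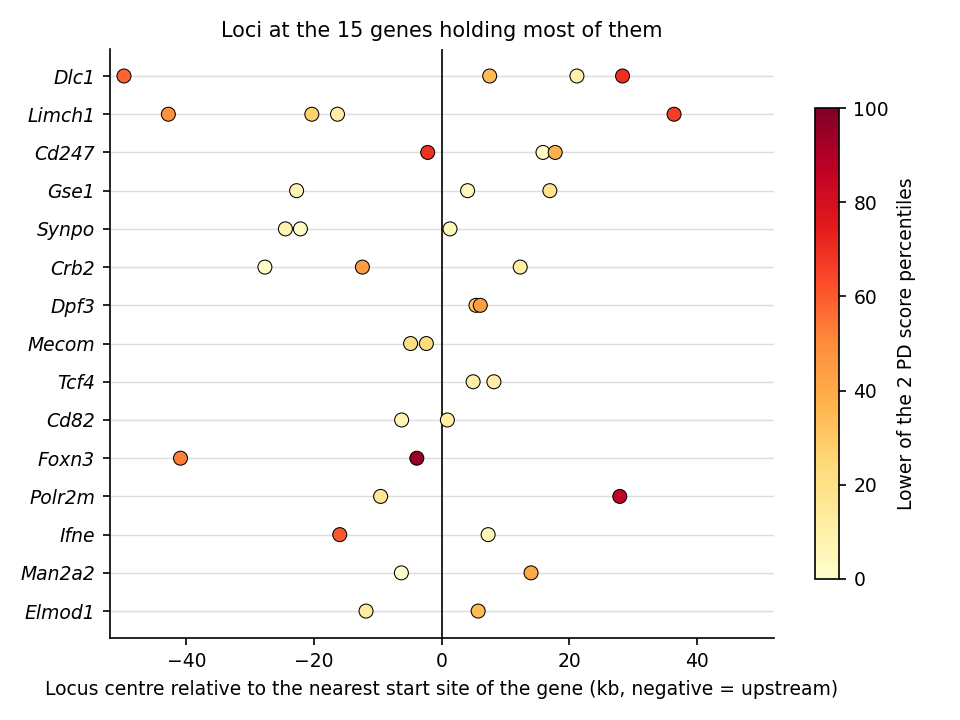
Distance in kb of each member locus from the nearest start site (horizontal axis, negative upstream) for the 15 genes with most of the loci (rows); colour gives the lower of its 2 PD score percentiles. Dlc1 and Limch1 hold 4 loci each, and the darkest point is the Foxn3 locus at -3895 bp.

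Of 22 gene lists, 1 held more of these loci than genes at large. Among 39188 loci within 10000 bp of a protein-coding start site, 271 were members, which is 0.692%. Genes of mesenchymal transcription factors had 5 of 152 loci, or 3.29% (1.08 to 7.51%), at Tcf4 (2 loci) and at Meox1, Mkx and Tcf21, which act in somite, tendon and mesothelial or stromal development. Some of these peaks were weak. In Hras.E1A+PD the Mkx locus scored 1.29, at the percentile 0.622, and the Tcf4 loci were at 12.3 and 11.6, while the Tcf21 locus was at 68. With a window of 50000 bp the share for this list was 1.57% (0.635 to 3.21%), beside 0.850% over all genes, and no longer stood out. At that window the contractile and SRF target genes did, with 12 of 689 loci or 1.74% (0.903 to 3.02%), as did homeobox genes outside the Hox clusters, with 11 of 547 or 2.01% (1.01 to 3.57%). The intervals were not adjusted for the number of lists. Near mesenchymal factor genes, 4 of the 152 loci within 10000 bp were shared PD-opened loci, or 2.63%, beside 1.04% over all genes. The share of 3.29% is therefore not read as particular to the loci described here.

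At genes of the pathways named by the motifs, the shares were within counting error of the 0.692% of all genes. Within 10000 bp, TEAD and Hippo genes had 1 of 134 loci (0.746%), at Ankrd1, a YAP target. Hox clusters had 2 of 117, at Hoxa4 and Hoxb13, or 1.71% (0.208 to 6.04%). Genes of AP-1 factors and of ERK feedback inhibitors each had 0 of 62, which allows a share of up to 4.84% by a limit of 3 counts and 5.78% by the exact interval. ERK-induced early genes had 1 of 99 (1.01%), at Epha2. Collagen and matrix genes had 3 of 137 (2.19%), at Abi3bp, Col16a1 and Tgfbi. Contractile genes had 3 of 194 (1.55%), at Ldb3, Myocd and Synpo. Of the same 137 and 194 loci, 4 and 8 were shared PD-opened loci. Pluripotency genes had 0 of 68, which allows up to 4.41% and 5.28% by the same limits. In all, 8 lists had no member, and every interval but that of the mesenchymal factors held the share of all genes.

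Promoters of most fibroblast markers were open in each list. Of 12 such genes, 8 to 11 had a promoter locus in each list, and Lum had none in any. Epithelial marker promoters were open at 4 to 5 of 5, endothelial at 1 to 3 of 5, blood at 1 to 2 of 4, neural at 1 to 2 of 4 and muscle at 0 to 2 of 4. An open promoter is not expression, and the part of other cell types in the peak lists was not tested. The lists held 56774 to 119251 peaks, with Hras.Myc+PD shortest and Hdac7SA.Mef2d longest, and the absence of a peak is the stricter condition in the longest list.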

How the data were processed

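Reads of 12 ATAC-seq samples in 7 groups were aligned and peaks called by the authors. The submitters' processing notes list the mm10 build, MACS2 2.2.7.1 and Bowtie2 2.4.5, and the methods state that weak peaks were recovered with knowledge of the other samples, so the lists depend on each other. The authors deposited 1 pooled list of 400-bp peaks per group, each peak with a score of unstated scale.

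Overlaps of 1 bp or more joined peaks into loci, on autosomes 1 to 19 and the sex chromosomes, with pandas 2.3.3. Positions came from the GENCODE M21 basic annotation and sequence from the RefSeq copy of GRCm38, the assembly of mm10. Loci within 1000 bp of a protein-coding start site were promoter loci. Motifs were searched as exact letters on both strands of the central 200 bp, and CTCF, MEF2 and other long motifs are given by name. Differences of shares carry Newcombe 95% intervals and ratios log-normal ones. The merging and the motif search were tested on simulated data.

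Genes named were those with most members within 50000 bp (the first 15, without Gm and Rik symbols), the 12 strongest loci and up to 4 genes per list. One of the strongest loci is not reported here by name. Sequences shown were those of the first 4 loci and of 3 more with pairs of motifs, chosen after seeing the data. The rule also asked for a strong locus with each of the 2 motifs of highest ratio to kept loci, but none of the 12 had one. The members, gene lists and motifs were chosen with earlier results of these data known. TGATTTAT taken alone, and the 7-letter words, were chosen after seeing the data. Alternatives are given in the closing section.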

Additional observations from a re-analysis of the deposited data

How the results depend on the processing

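Of 205 alternative values of 26 results, 178 counted as the same, 18 moved, 7 were weaker and 2 reversed. Ratios and the share near mesenchymal factors were the same if they kept their direction and their side of the interval's limit. Other shares were the same if they stayed inside the main interval, and counts if they stayed close. A peak covering 50% of the locus, or merging without the TSA lists, left the same 1506 loci. Cutting every list to the length of the shortest (56774 peaks) changed most. The number of loci rose to 6792 (1349 of the 1506 among them, and 4719 at an Hdac7SA.Mef2d peak of the full list), the promoter share to 17.9%, and the TSA shares became 7.76% and 20.5%. Motif shares became 6.23% (AP-1), 7.27% (HOX-PBX), 19.9% (MEIS), 14.3% (TEAD) and 4.58% (TGATTTAT). The ratios to shared PD-opened loci reversed to 0.772 for HOX-PBX and 0.753 for TGATTTAT, and that for MEIS was 1.10; against PD-closed loci HOX-PBX gave 1.05 and MEIS 1.06. With the weakest 20% of peaks removed there were 1668 loci, of which 904 were among the 1506, the AP-1 share was 5.82%, and the ratios to shared PD-opened loci were 0.805 (AP-1) and 1.13 (TGATTTAT). GC weighting gave 0.789 for AP-1. In the central 100 bp the shares were 2.26% (AP-1), 7.97% (HOX-PBX), 16.3% (MEIS), 9.03% (TEAD) and 5.31% (TGATTTAT), as a shorter window holds fewer hits. Promoters were 7.77% within 2500 bp and 3.39% within 500 bp. At 50000 bp, 2 gene lists stood above all genes, and mesenchymal factors, at 1.57%, were not among them. Apart from the window sizes, the cause was not tested. The TSA shares have no value when the lists are merged without TSA.

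No paired analysis was possible because each group had 1 pooled list. Leaving out a replicate was not run for the same reason. Depth is unknown, the Hdac7SA.Mef2d list is the longest, and a missing peak is not proof of closed chromatin.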
